A study of Homo sapiens with 4 samples.

Results

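Replication-dependent histone genes encode the core histones H2A, H2B, H3 and H4 and the linker histone H1 that package newly made DNA. The members described here were the genes of the count table whose symbol begins with HIST1H, HIST2H, HIST3H or HIST4H, which gave 73 of 27011 genes. They comprised 6 genes of class H1, 18 of H2A, 20 of H2B, 14 of H3 and 15 of H4, with 56 in the HIST1 cluster, 13 in HIST2, 3 in HIST3 and 1 in HIST4. RNA was measured in 4 RNA-Seq libraries of HEK293T, an established human embryonic kidney cell line. The 2 WT libraries came from unedited cells, and the 2 Helz-null libraries from 1 line made by Cas9 editing of HELZ, whose frameshift deletion removes a helicase that binds the CCR4–NOT deadenylase complex. Cells of both groups were otherwise untreated and the study calls the replicates biological. The comparison asked which mRNAs change in abundance without HELZ, here for one gene family.

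Most mRNAs end in a poly(A) tail, which CCR4–NOT shortens during decay. Replication-dependent histone mRNAs are the textbook exception, since their 3′ end is cut after a conserved stem-loop that SLBP binds, and they accumulate mainly in S phase. Some histone genes can also give polyadenylated transcripts, for example in differentiated cells. The libraries were made with the TruSeq RNA Sample Prep Kit, whose usual protocol enriches polyadenylated RNA, and the labels do not name the selection step. Histone counts in such libraries are therefore read as the RNA that the preparation captured, and not as the total histone mRNA of the cell.

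Library totals lay between 41745401 and 70464140 counts, and the floor used here, 3 counts in a library, is equal to 0.0426 to 0.0719 CPM, that is, counts scaled to a library of 1000000 counts. HELZ itself was measured at 97.6 and 102 TMM-normalized CPM in WT cells and at 36.2 and 37.1 CPM after editing, a log2FC of −1.44 with an SE of 0.04 (edgeR quasi-likelihood test, FDR 2.13e-27). Of 8 genes typical of HEK293T cells, 7 had over 10 counts in every library, including the neurofilament gene NEFM and the mesenchymal filament gene VIM, and PAX8 stayed between 0 and 4 counts. Of the 7, 4 differed between the groups (edgeR over the whole table, FDR below 0.005), against 21.4% of all genes tested, with NEFM (log2FC 0.88) and LHX1 (0.98) higher and VIM (−0.15) and EYA1 (−0.55) lower in Helz-null cells. Of 8 markers of other cell types, COL1A1 was detected at mean levels of 14.2 CPM (WT) and 14.8 CPM (Helz-null), and the other 7 had at most 6 counts in any library. The summed level of those 7 lay between 0.0935 and 0.215 CPM in WT and between 0.0947 and 0.182 CPM in Helz-null libraries.

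The 3′ end is the feature that sets these genes apart, and the stem-loop was searched in GRCh37 (hg19, the build of the study's mapping) within 150 bases past the last codon. It was taken as 16 bases, with 6 base pairs that begin with GG, end with CC and may hold a G-T pair, around a loop of 4 bases that begins with TT. It was found in 64 of the 67 coding members that could be placed and searched (95.5%), and in 4 of 4032 other coding genes of the same chromosomes (0.0992%). No match was found in these windows for HIST1H2BI, HIST1H3E and HIST1H4L. The most frequent form was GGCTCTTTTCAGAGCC, shared by 39 members of the classes H1, H2A, H2B and H3. The form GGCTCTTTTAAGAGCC was carried by 9 members, among them HIST1H2BK, and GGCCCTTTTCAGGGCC by 9 members of class H4. Stem-loops of the members on which the results turn are shown with 5 flanking bases on each side, written 5′ to 3′ on the gene's strand, with the stem-loop in capitals.
HIST1H2BK: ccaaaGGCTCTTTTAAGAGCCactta
HIST3H2A: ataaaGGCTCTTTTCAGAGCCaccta
HIST3H2BB: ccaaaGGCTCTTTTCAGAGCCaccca
HIST1H1C: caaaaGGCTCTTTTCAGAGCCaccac
HIST2H2BE: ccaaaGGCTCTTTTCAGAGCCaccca
HIST1H4C: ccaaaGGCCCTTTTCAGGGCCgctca
The capitals lie at chr6:27114145-27114160 on the minus strand for HIST1H2BK, at chr1:228645070-228645085 on the minus strand for HIST3H2A and at chr1:228646239-228646254 on the plus strand for HIST3H2BB. They lie at chr6:26055972-26055987 on the minus strand for HIST1H1C, at chr1:149857738-149857753 on the minus strand for HIST2H2BE and at chr6:26104545-26104560 on the plus strand for HIST1H4C.

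The canonical poly(A) signal AATAAA was present within 1000 bases past the last codon in 31 of 67 members (46.3%) and in 2505 of 4032 other coding genes (62.1%). It lay less than 50 bases past the stem-loop in 4 members, at 12 bases in HIST1H1C and HIST1H2BD and at 13 bases in HIST2H2AA3 and HIST2H2AA4. In 17 members GENCODE placed the end of some transcript at least 100 bases past the stem-loop, among them HIST3H2A, HIST3H2BB, HIST1H2AC, HIST1H2BD and HIST2H2BE. In the other 47 members with a stem-loop, HIST1H2BK and HIST1H1C included, every GENCODE transcript ended less than 100 bases past it. The median level was 1.05 RPKM (the TMM-normalized CPM per kilobase of the deposited gene width) in the 17 members and 0.174 RPKM in the 47. The 47 nevertheless held 76.8% of the family's counts and reached 70.6 RPKM, against 20.5% and 14.8 RPKM in the 17. This grouping follows GENCODE and not the deposited widths. The 11 members with a deposited width at least 300 bases over their class median held 72.5% of the counts. The deposited width of HIST1H2BK was 887 bases, against a median of 450.5 for the H2B genes, so its counts were collected over more sequence than the short stem-loop transcript spans.

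Most of the family was hardly sampled. In all 4 libraries together, 18 members had 0 counts and another 21 had between 1 and 20. Each member at 0 in a library stands below the floor of that library, which limits its captured RNA and not its transcription. The near-identical pairs HIST2H2AA3 and HIST2H2AA4, HIST2H4A and HIST2H4B, and HIST2H3A and HIST2H3C were at 0 in every library. How reads that match both copies were counted is not given in the sources used here, so these 6 zeros, and the low values of other near-identical coding copies, are uncertain. In HIST3, HIST3H3 had 3 and 0 counts in WT and 2 and 0 counts in Helz-null replicates 1 and 2. HIST4H4, the lone H4 gene on chromosome 12, had 4 and 9 counts in WT and 1 and 6 in Helz-null libraries, and its groups overlapped.

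One gene supplied most of the histone counts. HIST1H2BK, which encodes an H2B protein, held 64.3% of them, followed by HIST3H2A with 7.51%, HIST1H1C with 5.87%, HIST2H2BE with 4.12% and HIST1H2BD with 3.38%. Per length, HIST1H2BK stood at a mean of 70.6 RPKM over the 4 libraries and HIST3H2A at 14.8 RPKM, and these were the only members above 12.6 RPKM, the median of the 10978 genes in the authors' comparison. Next came HIST1H1C at 7.90 RPKM. Mean levels of the members tested ranged from 0.463 to 14.8 RPKM in H2A, from 0.373 to 70.6 in H2B, from 0.292 to 1.28 in H3, from 0.626 to 0.817 in H4 and from 0.615 to 7.90 in H1.

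**Figure D1:**
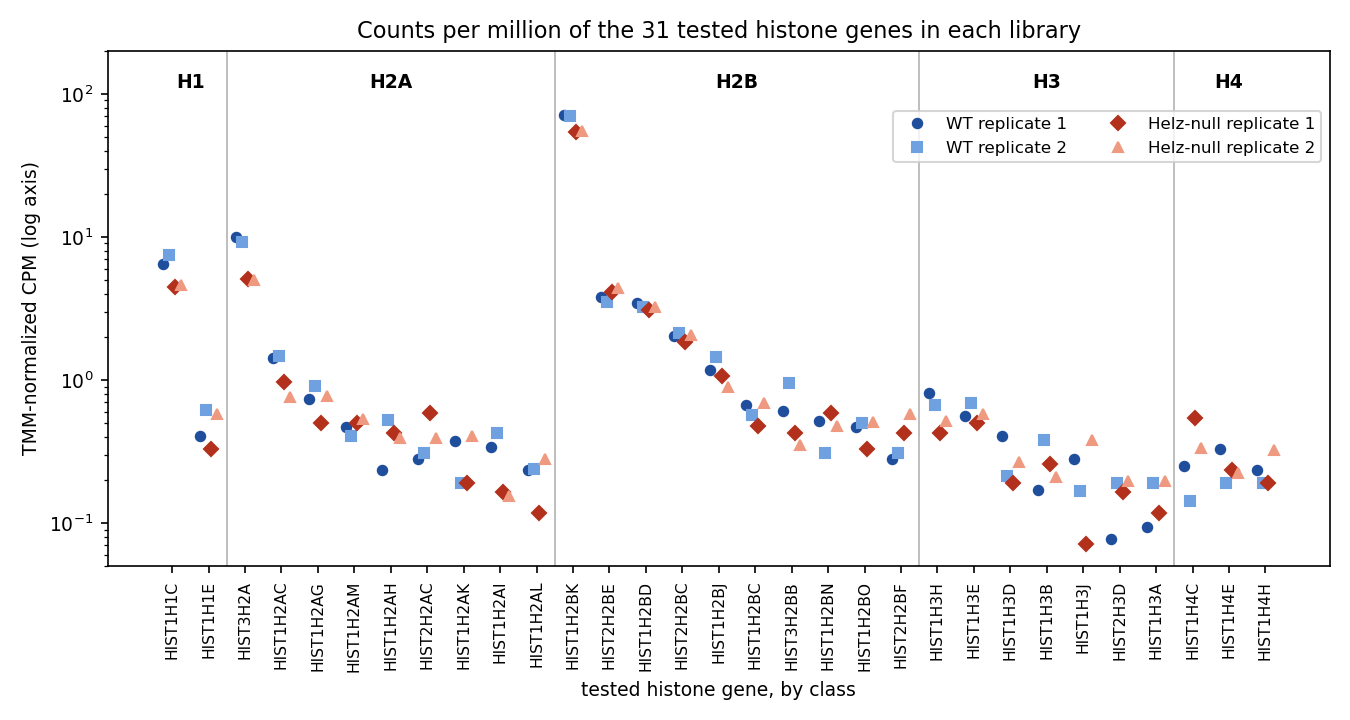
TMM-normalized CPM (log axis) of the 31 histone genes with enough counts to be tested, 1 point per library, ordered by class and by mean level. HIST1H2BK stands above all others at 54.2 to 71.3 CPM, and the WT points lie above the Helz-null points for HIST1H2BK, HIST3H2A and HIST1H1C.

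Summed over the family, histone RNA was lower in Helz-null cells. The 73 genes together took 7042 and 4579 counts in WT replicates 1 and 2 and 3543 and 6154 counts in Helz-null replicates 1 and 2. As a share of all counts of the library, given as CPM before TMM scaling, this was 108 (95% exact binomial interval 106 to 111) and 108 (105 to 111) in WT, and 84.9 (82.1 to 87.7) and 87.3 (85.2 to 89.5) in Helz-null. After TMM scaling the WT libraries averaged 109 ± 0.308 CPM and the Helz-null libraries 85.1 ± 1.76 CPM (SD, n = 2), or 77.7% of the WT level. Both Helz-null libraries lay below both WT libraries. Since bulk RNA was measured, fewer cells that express a gene and less RNA per cell cannot be told apart.

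The classes did not all follow this sum. H2B, which carried 78.0% of the counts, stood at 84.7 and 83.4 CPM in WT and at 66.9 and 68.3 CPM in Helz-null. H2A stood at 14.3 and 14.0 CPM in WT against 8.81 and 8.94 in Helz-null, and H1 at 7.01 and 8.30 against 4.85 and 5.30. In each of these classes both Helz-null libraries were below both WT libraries. H3 stood at 2.54 and 2.53 CPM in WT and at 1.89 and 2.43 in Helz-null, with a Helz-null SD of 0.378 about a mean of 2.16. H4 had the opposite order, with 1.18 and 1.05 CPM in WT and 1.44 and 1.35 in Helz-null, on 44 to 96 counts per library.

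The family sum did not rest on HIST1H2BK alone. Without it the other 72 genes summed to 38.4 and 39.2 CPM in WT and to 29.7 and 31.5 CPM in Helz-null libraries, a log2 ratio of −0.34 against −0.36 with it, and the groups did not overlap. Within the classes, single genes moved the sums. Without HIST1H2BK the log2 ratio of the H2B sum was −0.03, against −0.31 with it. Without HIST3H2A that of H2A was −0.24, against −0.67, and without HIST1H1C that of H1 was −0.28, against −0.59. For H4 the ratio was 0.32, and 0.05 without its most abundant member. For H3 it was −0.23, and −0.09 without its most abundant member. The H3 ratio was −0.06 without Helz-null replicate 1 and −0.42 without Helz-null replicate 2. The sum of the 70 members left without HIST1H2BK, HIST3H2A and HIST1H1C, which were removed because they had been called, was 21.9 and 22.4 CPM in WT and 20.1 and 21.9 CPM in Helz-null, and its groups overlapped.

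**Figure D2:**
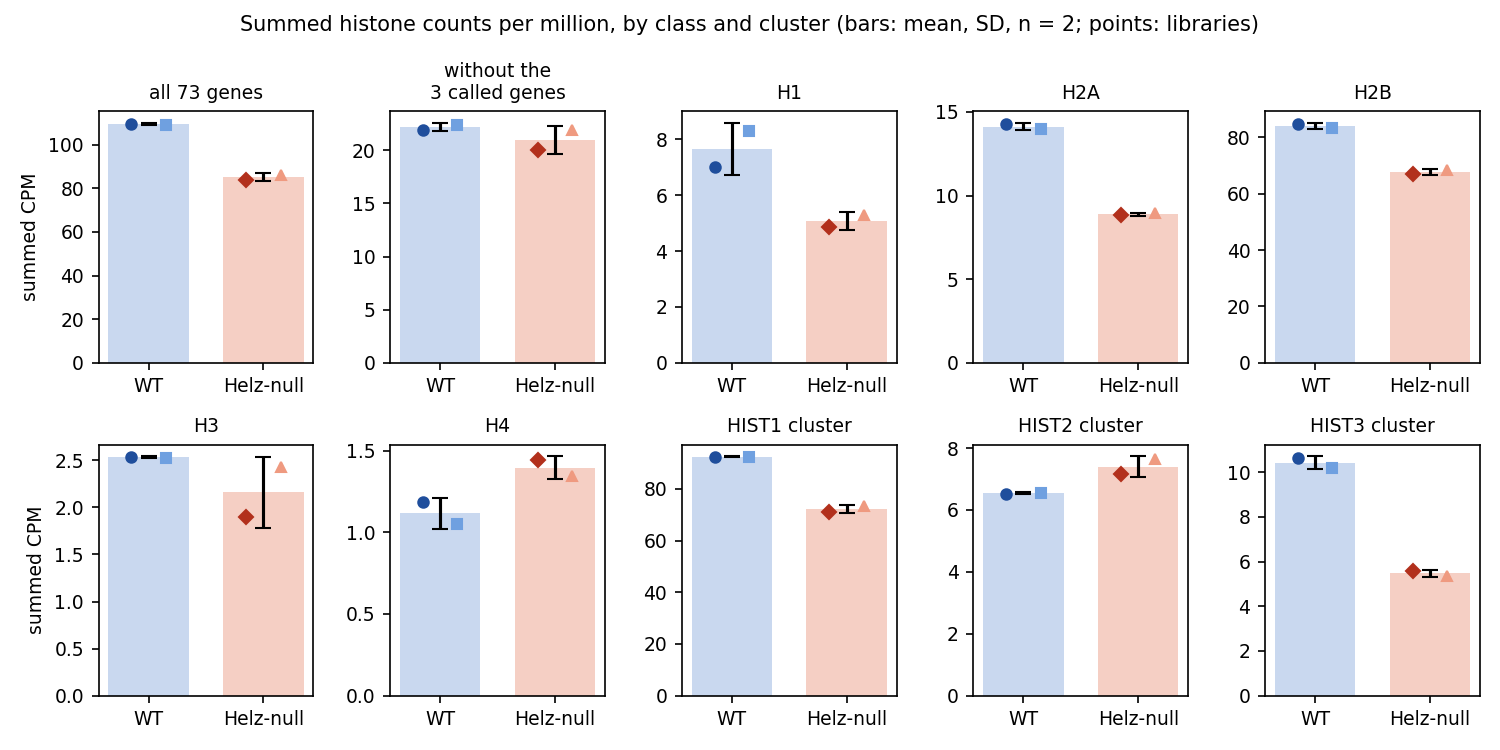
Summed TMM-normalized CPM of all 73 genes, of the 70 genes left without the 3 called ones, of each class and of the HIST1, HIST2 and HIST3 clusters, each panel with its own axis from 0. Bars give the mean and the SD of 2 libraries and points the libraries, and of these panels only the one without the 3 called genes has groups that overlap.

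In the authors' list of 10978 genes, 9 members were tested, and 3 passed the test, all with lower levels in Helz-null cells (edgeR quasi-likelihood test, FDR below 0.005). Over the whole list, 15.5% of genes were lower and 13.9% higher by the same test. At an unadjusted p below 0.05, 5 of the 9 passed, against 50.9% of all genes of the list, and DESeq2 also called 3, with 0 higher. The median log2FC was −0.42 over the 9 members and −0.00091 over all genes of the list. The groups did not overlap for 7 of the 9, against 70.6% of all genes of the list. With so few members a share can say little about the family, and the calls are described gene by gene.

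HIST1H2BK had 71.3 and 70.1 CPM in WT and 54.2 and 54.8 CPM in Helz-null libraries. Both Helz-null libraries were lower, and the replicates of a group lay close together. Its log2FC was −0.37 with an SE of 0.04 (edgeR, FDR 1.11e-09), or 77.1% of the WT level. It shares its promoter with HIST1H2AH, an H2A gene transcribed in the other direction, whose log2FC of 0.18 had an SE of 0.45 (edgeR, FDR 0.795). The counts of HIST1H2AH were 15 and 22 in WT and 18 and 28 in Helz-null libraries, too few to place its change near to or apart from that of HIST1H2BK.

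HIST3H2A, an H2A gene of the small HIST3 cluster, had 9.97 and 9.26 CPM in WT and 5.11 and 5.01 CPM in Helz-null libraries. The Helz-null values were lower without overlap. Its log2FC of −0.93 (95% CI −1.16 to −0.71, edgeR FDR 5.90e-09) corresponds to 52.4% of the WT level. HIST3H2BB, the H2B gene transcribed away from it, had 0.608 and 0.955 CPM in WT and 0.426 and 0.351 CPM in Helz-null libraries. The groups did not overlap, but with 18 to 40 counts per library its log2FC of −0.98 had an SE of 0.41 and did not pass (edgeR, FDR 0.0478).

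HIST1H1C, which encodes a linker histone, had 6.51 and 7.52 CPM in WT and 4.5 and 4.6 CPM in Helz-null libraries. Both Helz-null values were lower than both WT values. Its log2FC was −0.61 with an SE of 0.12 (edgeR, FDR 1.04e-04), or 65.5% of the WT level. HIST1H1E, the only other H1 gene tested, was read with 14 to 41 counts per library, and in the test of the whole table its log2FC was −0.07 with an SE of 0.40 (edgeR, FDR 0.911).

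The other abundant members did not pass the test. HIST2H2BE, an H2B gene of the HIST2 cluster, had 3.82 and 3.51 CPM in WT and 4.14 and 4.38 in Helz-null libraries, and its log2FC was 0.22 (95% CI −0.07 to 0.51, edgeR FDR 0.227). HIST1H2BD, another H2B gene, had 3.47 and 3.22 CPM in WT and 3.10 and 3.24 in Helz-null libraries, and its log2FC was −0.08 (95% CI −0.40 to 0.24, edgeR FDR 0.709). The groups of HIST1H2BD overlapped and those of HIST2H2BE did not. HIST2H2BC, a transcribed H2B pseudogene, had 2.04 and 2.15 CPM in WT and 1.85 and 2.06 in Helz-null libraries, with a log2FC of −0.08 and an SE of 0.20 (edgeR, FDR 0.772). HIST1H2AC, an H2A gene, had 1.42 and 1.48 CPM in WT and 0.971 and 0.758 in Helz-null libraries. Its log2FC of −0.78 with an SE of 0.27 missed the threshold (edgeR, FDR 0.0173), although its groups did not overlap. HIST1H2BJ, an H2B gene, had 1.17 and 1.46 CPM in WT and 1.07 and 0.898 in Helz-null libraries, and a log2FC of −0.42 with an SE of 0.27 (edgeR, FDR 0.214). The size of these small changes turned on single libraries. The log2FC of HIST1H2BD was −0.018 without WT replicate 1 and −0.12 without WT replicate 2, and that of HIST2H2BC was −0.016 without Helz-null replicate 1 and −0.18 without Helz-null replicate 2. That of HIST1H2BJ was −0.28 without WT replicate 2 and −0.27 without Helz-null replicate 2. The 95% CIs of HIST1H2BD, HIST2H2BC and HIST1H2BJ included both 0 and the log2FC of HIST1H2BK, so that a change of the size seen in HIST1H2BK was not detectable in them at this depth.

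The remaining members could be tested only in the whole table, where 16087 genes and 31 members had enough counts. The same 3 members were called, all down-regulated, against 11.5% down-regulated and 9.83% up-regulated genes over the whole table (edgeR quasi-likelihood test, FDR below 0.005). At an unadjusted p below 0.05, 7 of the 31 passed, against 42.9% of all genes tested. The groups did not overlap for 13 of 31 members, against 65.0% of all genes tested. The 22 members tested only here had between 33 and 161 counts in all 4 libraries, and 11 of their log2FC values were below and 11 above 0, with a median of 0.01. The smallest FDR among the 22 was 0.0567. The SE of the 28 members not called had a median of 0.41, against 0.06 over all genes tested.

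Among the 12 members of highest mean CPM, HIST1H2AG, HIST1H3H and HIST1H2BC belonged to these 22. HIST1H2AG, an H2A gene, had 47 and 38 counts in WT and 21 and 55 in Helz-null libraries, and the log2FC was −0.30 with an SE of 0.33 (edgeR, FDR 0.521), and −0.07 without Helz-null replicate 1 and −0.70 without Helz-null replicate 2. HIST1H3H, an H3 gene, had 52 and 28 counts in WT and 18 and 37 in Helz-null libraries, and its log2FC was −0.64 with an SE of 0.35 (edgeR, FDR 0.164). HIST1H2BC, an H2B gene, had 43 and 24 counts in WT and 20 and 49 in Helz-null libraries, and its log2FC of −0.07 with an SE of 0.35 (edgeR, FDR 0.899) changed sign when WT replicate 1 (0.06) or Helz-null replicate 1 (0.13) was left out. In CPM the groups overlapped for HIST1H2AG and HIST1H2BC and not for HIST1H3H.

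The ends of the range, named after their values were seen, were HIST1H2AI and HIST1H4C. HIST1H2AI, an H2A gene, had 22 and 18 counts in WT and 7 and 11 in Helz-null libraries, and its log2FC of −1.25 had an SE of 0.51 (edgeR, FDR 0.0567). HIST1H4C, an H4 gene, had 16 and 6 counts in WT and 23 and 24 in Helz-null libraries, and its log2FC of 1.03 had an SE of 0.49 (edgeR, FDR 0.102). Neither passed the test, and the groups did not overlap for either gene after scaling.

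**Figure D3:**
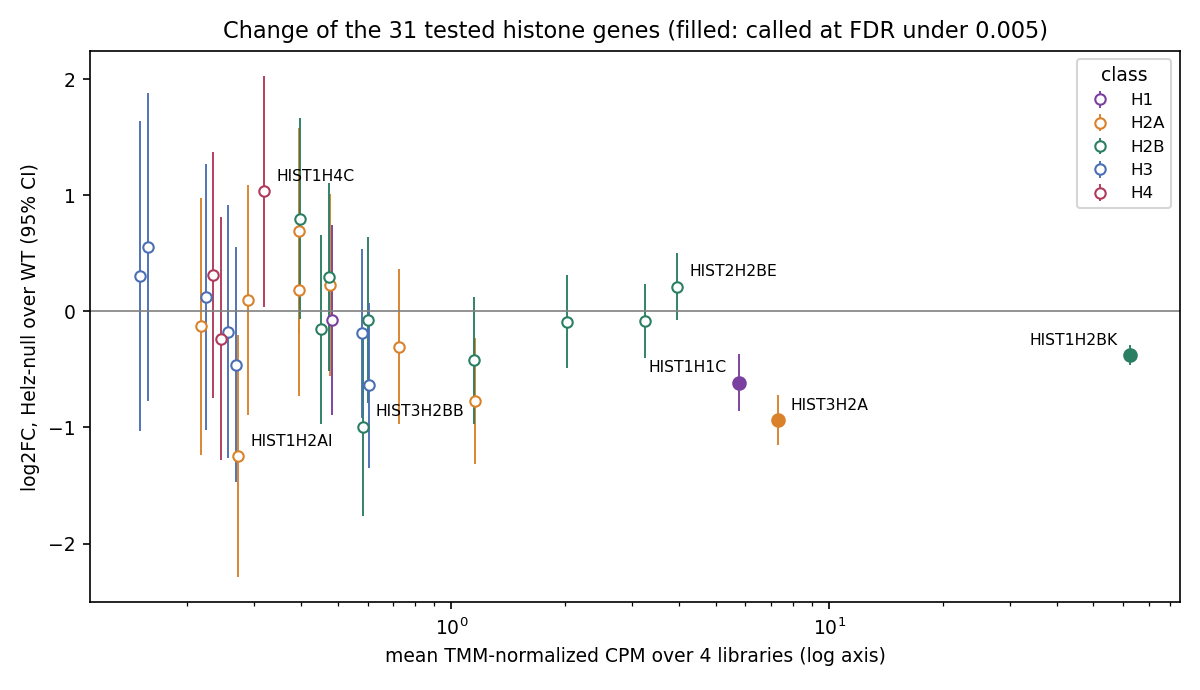
Log2FC of Helz-null over WT with its 95% CI for the 31 tested histone genes, against their mean CPM over 4 libraries (log axis), coloured by class, with the 3 called genes filled. Intervals narrow toward the right, where HIST1H1C, HIST3H2A and HIST1H2BK lie below 0, and the genes at the left scatter on both sides of 0 between −1.25 and 1.03.

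The clusters differed in how their surroundings behaved, which was described by the non-histone genes of the authors' list with a start within 2 Mb of the cluster. Around HIST3, on chromosome 1 from 228612546 to 228650805, all 22 neighbours were down-regulated (edgeR, FDR below 0.005), with log2FC values between −0.92 and −0.28 and a median of −0.61. Within 5 Mb the same held for 56 of 56 neighbours, with a median of −0.54. HIST3H2A lay 0.33 below the median of the 22, and its 95% CI, which reaches up to −0.71, did not include that median. That interval leaves out the spread of the neighbours. It included single neighbours such as ZNF678 (−0.92), the lowest of the 22, and CDC42BPA (−0.82), so HIST3H2A at −0.93 was close to the lowest neighbour. HIST3H2BB lay 0.37 below the median, with an interval that included it. HIST3H2A, the HIST3 gene that was called, was thus lower in a region where every tested neighbour was down-regulated too, and the part of the region in the result was not tested.

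Around HIST1, on chromosome 6 from 25723625 to 27861669, the 30 neighbours had log2FC values between −0.30 and 0.19 with a median of −0.07. Of these, 4 were down-regulated, against 15.5% of all genes of the authors' list. HIST1H2BK at −0.37 and HIST1H1C at −0.61 lay below the lowest of these 30. Within 5 Mb the 105 neighbours had a median of −0.0062 and reached from −2.13 to 0.97, so some of the more distant ones were lower than both histone genes. Of the 24 HIST1 members tested in the whole table, 16 had a log2FC below 0 and 8 above. Around HIST2, on chromosome 1 from 149754245 to 149859515, the 47 neighbours had a median of 0.04. Of these, 5 were down- and 7 up-regulated, against 15.5% and 13.9% of all genes of the authors' list. The HIST2 sum was 6.53 and 6.56 CPM in WT and 7.17 and 7.63 CPM in Helz-null libraries, so this cluster had the opposite order to HIST1 and HIST3, and 4 of its 5 tested members had a log2FC above 0, none of them called. HIST2H2BA, a pseudogene, lies apart from the rest of HIST2 and was not used to set the cluster's ends. HIST4H4 had 11 neighbours with a median of 0.06.

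**Figure D4:**
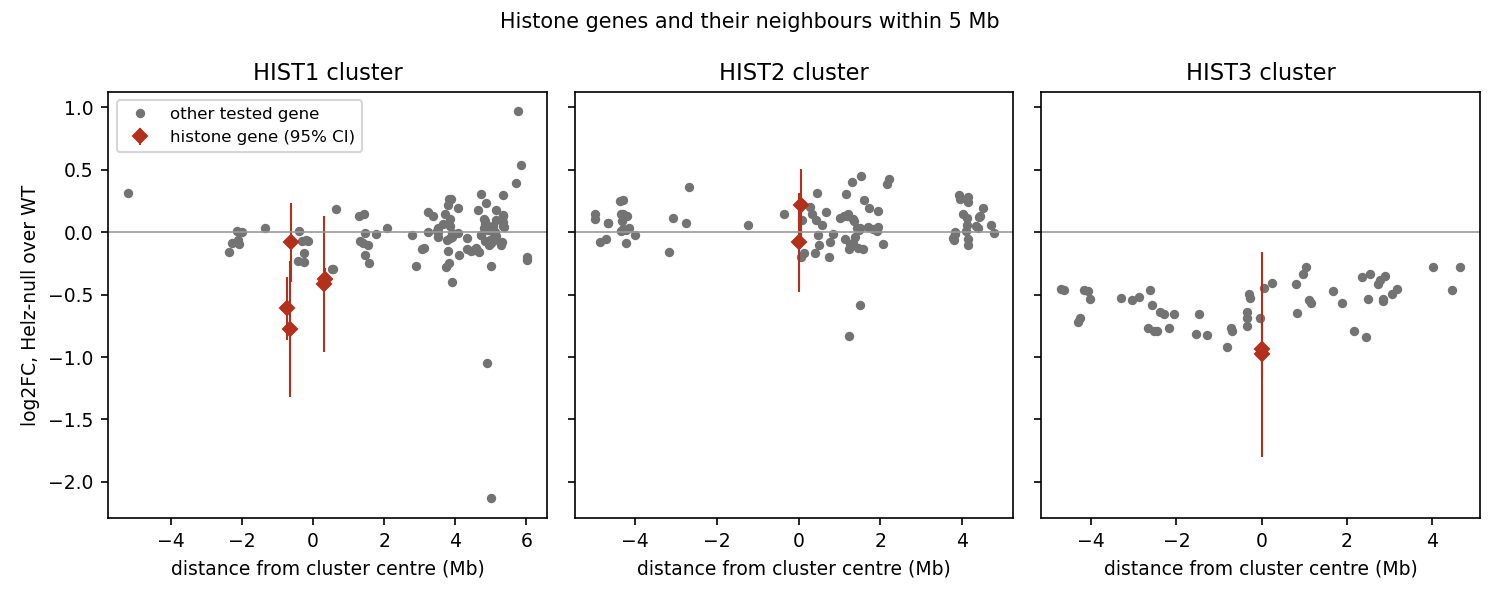
Log2FC of Helz-null over WT for the genes of the authors' list within 5 Mb of the ends of the HIST1, HIST2 and HIST3 clusters, against their distance in Mb from the cluster's centre, with histone genes as diamonds with their 95% CI. All points around HIST3 lie below 0, with a median of −0.54 for the 56 neighbours, whereas the points around HIST1 and HIST2 centre near 0.

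Many H2A and H2B genes are transcribed in opposite directions from a shared promoter, and 11 such pairs with at most 500 bases between their starts were found. Promoters of the called members of 2 pairs are shown, 5′ to 3′ on the plus strand of GRCh37, from the base after one transcription start to the base before the other. Capitals mark CCAAT boxes (CCAAT or ATTGG on the other strand), TATA boxes (TATAAA or TTTATA) and the octamer (ATTTGCAT or ATGCAAAT), which POU2F1 binds in H2B promoters.
HIST1H2BK and HIST1H2AH, chr6:27114635-27114884: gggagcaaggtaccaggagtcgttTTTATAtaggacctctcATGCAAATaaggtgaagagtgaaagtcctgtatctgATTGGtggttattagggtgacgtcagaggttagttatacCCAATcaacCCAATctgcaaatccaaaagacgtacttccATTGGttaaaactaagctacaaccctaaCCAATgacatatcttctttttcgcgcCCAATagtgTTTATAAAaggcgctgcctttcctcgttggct
HIST3H2A and HIST3H2BB, chr1:228645575-228645803: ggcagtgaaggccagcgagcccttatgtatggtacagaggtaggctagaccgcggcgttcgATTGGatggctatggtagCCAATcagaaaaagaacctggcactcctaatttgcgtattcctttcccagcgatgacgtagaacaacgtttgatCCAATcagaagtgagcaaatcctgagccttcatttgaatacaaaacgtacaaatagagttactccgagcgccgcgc
The promoter between HIST1H2BK and HIST1H2AH is 250 bases long and held 6 CCAAT matches, 3 TATA matches, which may overlap on the 2 strands, and 1 octamer. The 229 bases between HIST3H2A and HIST3H2BB held 3 CCAAT matches and 0 matches of either other motif. HIST3H2A and HIST3H2BB had log2FC values of −0.93 and −0.99 in the whole table, with SEs of 0.11 and 0.38.

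In the RefSeq promoter windows of 300 bases, which were given for 65 members, the octamer was found in 14 of 18 H2B genes (77.8%), 11 of 16 H2A genes (68.8%), 1 of 12 H3 genes and 0 of 6 H1 and 13 H4 genes, against 1.80% of 27305 promoters. CCAAT was found in every window of the H1, H2A, H2B and H3 genes and in 3 of 13 H4 windows (23.1%), against 35.7% of all promoters. TATAAA was found in 43 of 65 members (66.2%), against 12% of all promoters. By class, the 3 called genes belong to classes with and without the octamer, since HIST1H1C is an H1 gene. In the divergent promoters printed above, the octamer was present for HIST1H2BK and absent for HIST3H2A.

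Genes that make and process histone mRNA are read against the whole table, in which 9.83% of genes were up-regulated and 11.5% down-regulated. Of 23 tested genes of histone transcription and 3′ end processing, 4 were up-regulated and 2 down-regulated, with a median log2FC of −0.05 (edgeR quasi-likelihood test over the whole table, FDR below 0.005). Down-regulated were NPAT, the cyclin E–CDK2 substrate that activates histone genes (35.7 CPM in WT, 28.8 in Helz-null, log2FC −0.31 ± 0.05 SE, FDR 2.67e-05), and LSM10, a subunit of the U7 snRNP, named after its value was seen (41.1 and 32.4 CPM, log2FC −0.34 ± 0.06 SE, FDR 1.42e-05). Up-regulated were CSTF2 (92.6 and 120 CPM, log2FC 0.37 ± 0.03 SE, FDR 1.42e-10), CPSF3, SYMPK and NCBP1, of which CPSF3 is the endonuclease of both histone and poly(A) 3′ ends, SYMPK its scaffold and NCBP1 a cap-binding protein. SLBP, which binds the stem-loop, had 119 CPM (WT) and 124 CPM (Helz-null) and did not pass (log2FC 0.06 ± 0.03 SE, edgeR FDR 0.203). CASP8AP2, a partner of NPAT, had 58.5 and 56.8 CPM (log2FC −0.05 ± 0.04 SE, edgeR FDR 0.425).

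Of 17 genes of histone mRNA translation and decay, 3 were down-regulated (edgeR, FDR below 0.005), against 11.5% of all genes tested, with a median log2FC of −0.04. They were XRN1, the 5′-3′ exonuclease (41.6 CPM in WT and 32.3 in Helz-null, log2FC −0.37 ± 0.05 SE, FDR 1.38e-06), and the kinases SMG1 (log2FC −0.24) and ATR (log2FC −0.17), both named after their values were seen. With DESeq2 or with library sizes alone, 2 of the 17 were called. ERI1, the exonuclease that trims the stem-loop end, had 29.7 and 27.4 CPM and did not pass (log2FC −0.12 ± 0.06 SE, edgeR FDR 0.115).

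Of 19 replication-independent histone genes, most of which give ordinary polyadenylated mRNAs, 11 had enough counts to be tested and 4 were at 0 in every library. H2AFZ, which encodes the variant H2A.Z, stood at 880 CPM in WT cells and at 871 CPM without HELZ (log2FC −0.02 ± 0.03 SE, edgeR FDR 0.651). The genes H3F3A and H3F3B encode the same protein, H3.3, and the difference between their changes was not tested. H3F3A was down-regulated from 830 to 532 CPM (log2FC −0.64 ± 0.03 SE, FDR 2.47e-19), and H3F3B had 729 and 728 CPM (log2FC −0.01 ± 0.03 SE, edgeR FDR 0.893). H3F3A lies 2.38 Mb from the centre of HIST3, within the region in which 56 of 56 genes of the authors' list were down-regulated. H1F0, a linker histone gene expressed outside S phase, was down-regulated from 169 to 129 CPM (log2FC −0.39 ± 0.03 SE, FDR 1.22e-11), and the linker histone gene H1FX had 163 and 156 CPM (log2FC −0.07 ± 0.03 SE, edgeR FDR 0.112). H2AFX, whose mRNA can end in a stem-loop or a poly(A) tail, had 222 and 209 CPM (log2FC −0.09 ± 0.03 SE, edgeR FDR 0.0242). In all, 1 of 11 tested genes of this list was up-regulated and 3 were down-regulated, against 9.83% and 11.5% of all genes tested, and the 4 calls became 2 without Helz-null replicate 2.

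Measures of S phase and of other RNAs without a poly(A) tail were set beside the histone sums. Of 40 tested S phase genes, 5 were up- and 6 down-regulated (edgeR, FDR below 0.005), against 9.83% and 11.5% of all genes tested, with a median log2FC of 0.0025, and EXO1, a DNA repair exonuclease, had the largest called change at −0.51. With library sizes alone, 14 S phase genes were called, 8 of them up-regulated, and 9 were called without Helz-null replicate 1 (3 up-regulated) or without Helz-null replicate 2 (2 up-regulated). Of 31 listed genes of non-polyadenylated RNAs, 20 were in the table and 9 were tested, and NEAT1, a nuclear RNA that also has a polyadenylated form, was up-regulated (log2FC 0.31 ± 0.04 SE, FDR 2.12e-07). The 18 of these genes other than NEAT1 and MALAT1 summed to 6.95 and 6.23 CPM in WT and to 6.44 and 6.20 CPM in Helz-null libraries, and the groups overlapped. The part of the capture of RNA without a poly(A) tail in the histone result was not tested.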

How the data were processed

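The authors prepared 2 WT and 2 Helz-null HEK293T libraries, removed ribosomal RNA reads with Bowtie2, aligned the rest (paired-end, hg19) by TopHat2 and obtained counts per gene by QuasR. The deposited read counts for 27011 genes are not normalized and come with a gene width in bases. A second table deposited by the authors holds their edgeR comparison, with log2 fold changes, mean log2 levels, p-values and FDRs, for 10978 genes. These values were not used, and only its list of genes was. Tool versions, the annotation, strand use, the counting of mates and of reads with several matches are not given in the sources used here, so overlapping, antisense and near-identical genes are uncertain.

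Counts were tested in R 4.3.3 with edgeR 4.0.16 (TMM, glmQLFit, glmQLFTest, genotype as the only term) on the 10978 genes and, for rarer members, on the 16087 genes kept by filterByExpr, with Benjamini-Hochberg adjustment and a threshold of 0.005. SEs come from the log2FC and the F statistic. CPM use TMM factors of the first fit, and RPKM divide them by the deposited width. Sums and medians over genes have no test. Library totals were 65005666 and 42342295 counts in WT and 41745401 and 70464140 in Helz-null replicates 1 and 2. Intervals and floors cover counting error only. The libraries of a group differed by more than counting noise (chi-square per degree of freedom 4.15 in WT and 3.01 in Helz-null) and each was kept. The biological coefficient of variation was 2.60%.

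Positions come from GENCODE on GRCh37, where 70 of 73 members were placed (all but HIST1H2BF, HIST1H2BG and HIST1H4F) and 3 pseudogenes were left out of the stem-loop search. That search used 150 bases past the last codon, and not the whole gene body as planned. RefSeq promoters are of GRCh38.p14 and no coordinates were taken from them. The members, lists and rules were chosen with earlier results of these data known. Named genes were HELZ, the 12 members of highest mean CPM, called members, the HIST3 and HIST4 members, 3 duplicated pairs, set list genes and the largest called change of each list. Others are named as chosen after their values were seen. The steps were tested on simulated data. Of 100 genes changed by 0.5 on the log2 scale, 99 were called among 10978 genes and 81 among 16087. The changed genes were drawn at random from all genes with a common dispersion, so these shares do not describe histone members with few counts. Alternatives covered DESeq2 1.42.0, other scalings, filters and thresholds, a replicate block, thinned and halved counts, single libraries left out, sums without the most abundant gene and other neighbour windows. Figures were drawn with matplotlib 3.10.9.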

Additional observations from a re-analysis of the deposited data

How the results depend on the processing

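In both sets of genes, 3 histone genes were called, all lower in Helz-null cells, with DESeq2, with other scalings and filters, with thinned and halved counts and with any single library left out. At a threshold of 0.05 the count was 5 in either set, with HIST1H2AC and HIST3H2BB added. Both may have entered the authors' list through their WT level. With the replicate block the count was 3 in either set. The labels share only replicate numbers, and deviations of same-numbered libraries correlated at 0.0332, so the block was not taken as a pairing. HELZ stayed between −1.47 and −1.41 and called under every alternative run for it. The log2 ratio of the summed histone counts, −0.36, was −0.33 with library sizes alone, −0.34 without HIST1H2BK, its most abundant gene, and −0.079 without the 3 called genes, an alternative chosen after seeing the data. With single libraries left out, the sum of all genes lay between −0.38 and −0.34, and the sum without the called genes between −0.15 without Helz-null replicate 2 and −0.016 without Helz-null replicate 1. The median of the genes around HIST3 was −0.54 in the window of 5 Mb, that around HIST1 moved from −0.07 to −0.0062, and that around HIST4 turned from 0.06 to −0.0017 in that window. HIST1H2BC, at −0.07, lay between −0.41 and 0.13 with single libraries left out, above 0 without WT replicate 1 (0.06) or Helz-null replicate 1 (0.13).

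Members outside the abundant ones rest on few counts, and near-identical copies may share reads. One Helz-null line was compared with WT cells, so line and genotype cannot be told apart. Without Helz-null replicate 1 the list genes called fell from 42 to 29, and without Helz-null replicate 2 to 32. Genes called fell from 6 to 3 among chaperones and from 11 to 6 among G2 and M phase genes without Helz-null replicate 1, and from 4 to 2 among replication-independent histone genes without Helz-null replicate 2. Among non-polyadenylated RNA genes they rose from 1 to 2 without WT replicate 1 or Helz-null replicate 1.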

Other observations

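Histone chaperones, which carry histones to and from DNA, were measured with high counts. Of 22 tested, 4 were up-regulated and 2 down-regulated (edgeR quasi-likelihood test over the whole table, FDR below 0.005), against 9.83% and 11.5% of all genes tested, with a median log2FC of 0.06. With library sizes alone, 8 were called, 6 of them up-regulated. ATRX, which deposits H3.3 at repeats together with DAXX, had the largest called change, from 71.3 CPM in WT to 59.0 CPM in Helz-null cells (log2FC −0.28 ± 0.04 SE, FDR 1.93e-06). NAP1L1, a chaperone of H2A and H2B, was down-regulated (log2FC −0.13 ± 0.03 SE, FDR 1.79e-04). CABIN1 and HIRA, subunits of the complex that deposits H3.3, were up-regulated with log2FC values of 0.22 and 0.13. Except for ATRX, these genes were named after their values were seen.

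Of 50 genes of the G2 and M phases, 7 were up-regulated and 4 down-regulated (edgeR, FDR below 0.005), against 9.83% and 11.5% of all genes tested, with a median log2FC of 0.03. With library sizes alone in place of TMM scaling, 15 were called, 12 of them up-regulated. LBR, a lamin B receptor of the inner nuclear membrane, had the largest called change (345 CPM in WT and 237 in Helz-null, log2FC −0.55 ± 0.03 SE, FDR 1.21e-16), and it lies 3.03 Mb from the centre of the HIST3 cluster, in the region described above. Over the 7 gene lists other than cell type markers, 42 of 168 tested genes were called (25.0%), 22 of them up-regulated, against 21.4% of all genes tested. With library sizes alone, 50 were called, 33 of them up-regulated, so the near balance of the directions depended on the scaling.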
